A study of Mus musculus with 6 samples.

Results

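SELENOW, SELENOT, SELENOH, SELENOM and SELENOF are small selenoproteins that share a thioredoxin fold. Their genes, Selenow, Selenot, Selenoh, Selenom and Selenof, were taken from the count table by Ensembl identifier, and make up 5 of its 55416 genes. RNA-seq was performed on the TA (tibialis anterior) muscle, a fast muscle of the lower hindlimb, of 3 WT and 3 SELENOW KO male mice on the C57BL/6N background that had aged naturally to 24 months. The KO mice carry a germline CRISPR-Cas9 deletion of exon 4 of Selenow, made with a pair of guides, so every cell of the animal lacks it and not muscle alone. The libraries held between 25351976 and 29111213 counts, and 15623 genes passed the filter on low counts, all 5 members among them.

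Selenoproteins carry selenocysteine, which is inserted at a UGA codon that would otherwise end translation, with the help of a hairpin in the 3′ untranslated region of the mRNA. In the members described here the selenocysteine lies close to a cysteine, and the pair can form and open a selenenylsulfide bond in redox reactions. SELENOW is a cytosolic protein that is abundant in skeletal muscle and whose level depends on selenium supply. SELENOH is found in the nucleolus, SELENOT is anchored in the membrane of the endoplasmic reticulum (ER), and SELENOM and SELENOF are found in the ER lumen, where SELENOF binds the glycoprotein-folding sensor UGGT1.

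The following 30-base stretches of the coding sequences (GENCODE M21, build GRCm38, sense strand) are shown because they hold the cysteine and selenocysteine pair of each member. Capitals mark the nearest cysteine codon and the selenocysteine codon TGA.
Selenow: tatTGTggagctTGAggctataagcccaag
Selenot: attTGTgtatccTGAgggtaccggcgggtg
Selenoh: catTGTacgagcTGAcgcgtgtacggccgc
Selenom: accTGTggaggaTGAcagttgaatcgccta
Selenof: gaagtcTGCggaTGAaaattggggaggttc

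In Selenow the selenocysteine is codon 13 of 88, and it is codon 49 of 195 in Selenot, 38 of 116 in Selenoh and 48 of 145 in Selenom. In these 4 genes the cysteine is encoded 3 codons upstream, with 2 residues between the pair, and the selenocysteine codon lies in exon 2. Selenof stood apart, with the selenocysteine at codon 93 of 162 in exon 3 and 1 residue between it and the cysteine.

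In the positions of the count table, which the submitters' processing notes place on GRCm39, Selenow spans chr7:15651133-15656327 on the minus strand and Selenoh chr2:84499559-84501114 on the minus strand. Selenot spans chr3:58484057-58500554, Selenof chr3:144276065-144303441 and Selenom chr11:3464684-3467351, all on the plus strand.

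Because the KO allele removes an exon of Selenow, its coding sequence is shown next, 5′ to 3′ from the ATG and without the stop codon, with the deleted exon 4 in capitals.
Selenow coding sequence: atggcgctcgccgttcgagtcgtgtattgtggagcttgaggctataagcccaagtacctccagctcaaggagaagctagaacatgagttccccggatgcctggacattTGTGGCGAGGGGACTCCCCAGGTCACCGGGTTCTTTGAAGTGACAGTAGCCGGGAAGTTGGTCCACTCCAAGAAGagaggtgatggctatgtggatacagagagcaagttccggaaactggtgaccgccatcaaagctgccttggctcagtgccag

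Exon 4 is 75 bases long and encodes codons 37 to 61, which is 25 whole codons. It lies at chr7:15920043-15920117 on the minus strand of GRCm38 and at 15653968 to 15654042 in the positions of the count table. The selenocysteine codon lies upstream of it, in exon 2. The exon makes up 10.2% of the 736 bases over which Selenow reads were counted. Counts were given per gene and not per exon, so they could not show directly whether exon 4 was missing from the KO libraries.

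**Figure D1:**
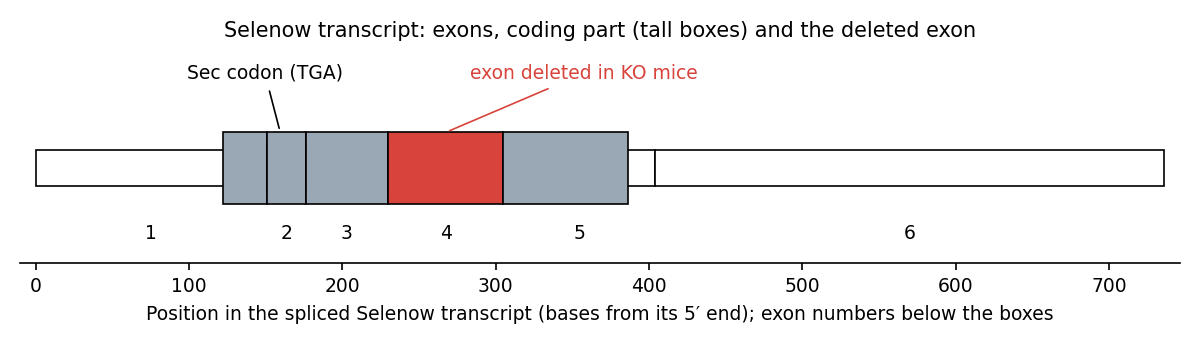
Map of the spliced Selenow transcript, with position in bases from its 5′ end on the horizontal axis, exon numbers below, the coding part as tall boxes and untranslated parts as low boxes. The deleted exon 4 (red) holds 75 of the 736 bases and lies downstream of the selenocysteine codon.

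Selenow transcript was present in every KO library. The counts are of RNA and do not show the protein. By Western blot, the study reported that SELENOW protein was lost from TA muscle of KO mice. Selenow (ENSMUSG00000041571) was counted 6606, 7858 and 6657 times in WT1, WT2 and WT3, and 4801, 5205 and 5611 times in KO1, KO2 and KO3. Expressed as CPM (counts brought to a common library total and scaled by TMM factors), these were 268, 245 and 219 in WT and 193, 212 and 210 in KO. Every KO library lay below every WT library, with the highest KO library close under the lowest WT library, and the spread within WT was wider than the gap between the groups. The WT mean was 244 ± 24.4 CPM and the KO mean 205 ± 10.3 CPM (SD, 3 libraries each), a ratio of 0.841.

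The difference in Selenow did not pass the test. Its log2 fold change was -0.25 (SE 0.14, 95% interval -0.56 to 0.060), with an unadjusted p of 0.105 and an adjusted p of 0.604 in edgeR's quasi-likelihood test. The two-sided exact permutation test gave p = 0.1, the smallest value that 3 against 3 libraries allow. Over all genes tested, 7.87% had groups that did not overlap with KO the lower, and 0% had an adjusted p under 0.05, while 1545 genes (9.89%) had an unadjusted p under 0.05 and DESeq2 gave 45 genes with an adjusted p under 0.05. Counting error of Selenow was 1.13 to 1.44% of its counts, and its coefficient of variation was 9.98% among the WT and 5.00% among the KO libraries. In whole muscle, fewer cells that express a gene and less RNA per cell cannot be told apart.

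A KO transcript without exon 4 would be 661 bases long and would give fewer counts at the same number of molecules. If the KO counts are taken per 661 bases and the WT counts per 736, the log2 difference becomes -0.095. This is a conversion by length only, chosen after seeing the data, and the length of the KO transcript was not measured.

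**Figure D2:**
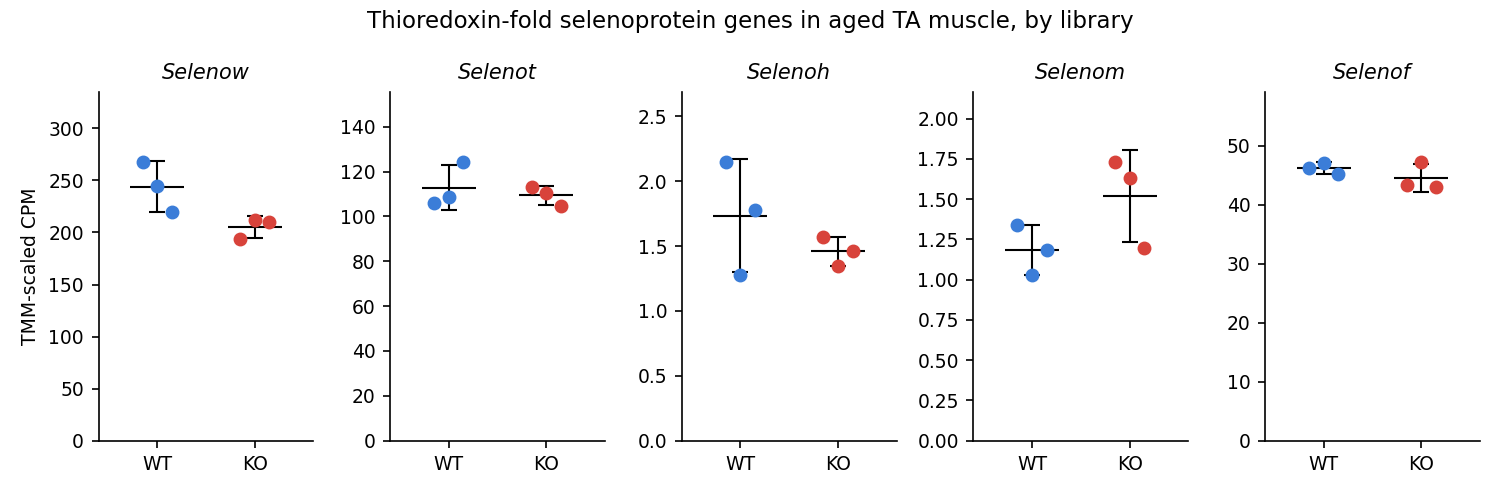
TMM-scaled CPM of the 5 genes in each library (points; WT blue, KO red; replicates 1 to 3 from left to right), with the mean and SD as bars; each panel has its own axis from 0. Selenow is the only 1 of the 5 whose WT and KO libraries do not overlap.

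SELENOH, the nucleolar member, had few reads. Selenoh (ENSMUSG00000076437) was counted 53, 41 and 54 times in WT and 39, 33 and 39 times in KO, which corresponds to 2.15, 1.28 and 1.78 CPM in WT and 1.57, 1.35 and 1.46 in KO. The WT libraries held both the highest and the lowest value, and all KO libraries lay between them. The log2 fold change was -0.24 (SE 0.28, 95% interval -0.85 to 0.37), with an adjusted p of 0.804. Without WT1 it was -0.064 and without WT2 it was -0.42. Counting error was 13.6 to 17.4% of a count, and the coefficient of variation was 25.3% among the WT and 7.73% among the KO libraries. Selenoh lies within the span of Gm28635 on the same strand of chromosome 2, a gene with 384 to 513 counts per library, but they share 0 exon bases in the annotation.

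Of the ER members, SELENOT is the membrane protein. Selenot (ENSMUSG00000075700) was counted 2607, 3483 and 3776 times in WT and 2808, 2709 and 2798 times in KO. This gave 106, 108 and 124 CPM in WT and 113, 110 and 105 in KO. The groups overlapped, WT3 was the highest library, and the other WT libraries lay within the KO range. The log2 fold change was -0.045 (SE 0.13, 95% interval -0.34 to 0.25, adjusted p = 0.939), and without WT3 it was 0.029. The interval leaves room for a KO level between 0.792 and 1.19 times that of WT. The processed pseudogene Selenot-ps had 1 read in all 6 libraries together.

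SELENOM was the only member whose mean was higher in KO. Selenom (ENSMUSG00000075702) was counted 33, 33 and 36 times in WT and 43, 40 and 32 times in KO, or 1.34, 1.03 and 1.19 CPM in WT and 1.73, 1.63 and 1.20 in KO. KO1 and KO2 lay above all WT libraries, and KO3 lay among them. The log2 fold change was 0.36 (SE 0.29, 95% interval -0.27 to 1.0, adjusted p = 0.711), with a counting error of 15.2 to 17.7% of a count.

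Of the 5 members, SELENOF had the narrowest spread among the WT libraries in relation to its mean. Selenof (ENSMUSG00000037072) was counted 1141, 1514 and 1371 times in WT and 1077, 1160 and 1151 times in KO, or 46.3, 47.1 and 45.2 CPM in WT and 43.4, 47.3 and 43.1 in KO. KO2 was the highest of all 6 libraries and KO1 and KO3 were the lowest, so the groups overlapped. The log2 fold change was -0.051 (SE 0.12, 95% interval -0.31 to 0.21, adjusted p = 0.916), and from -0.094 (without KO2) to -0.025 (without KO3) with single libraries left out.

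By the count, 0 of 5 members passed an unadjusted p of 0.05, against 9.89% of all genes, and 1 of 5 had groups that did not overlap, against 15.4% of all genes in either direction. The log2 fold change was below 0 for 4 of 5 members, against 50.6% of all genes, with a median of -0.051 against -0.0042. When counts were scaled by library totals instead of TMM factors, the median of all genes moved to -0.25, and Selenow, Selenot and Selenof were then lower in every KO library than in any WT library, as were 24% of all genes tested under that scaling. Relative to that shift the values changed little, with Selenow at -0.49 (adjusted p = 0.168), Selenot at -0.30, Selenoh at -0.48, Selenom at 0.11 and Selenof at -0.30.

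**Figure D3:**
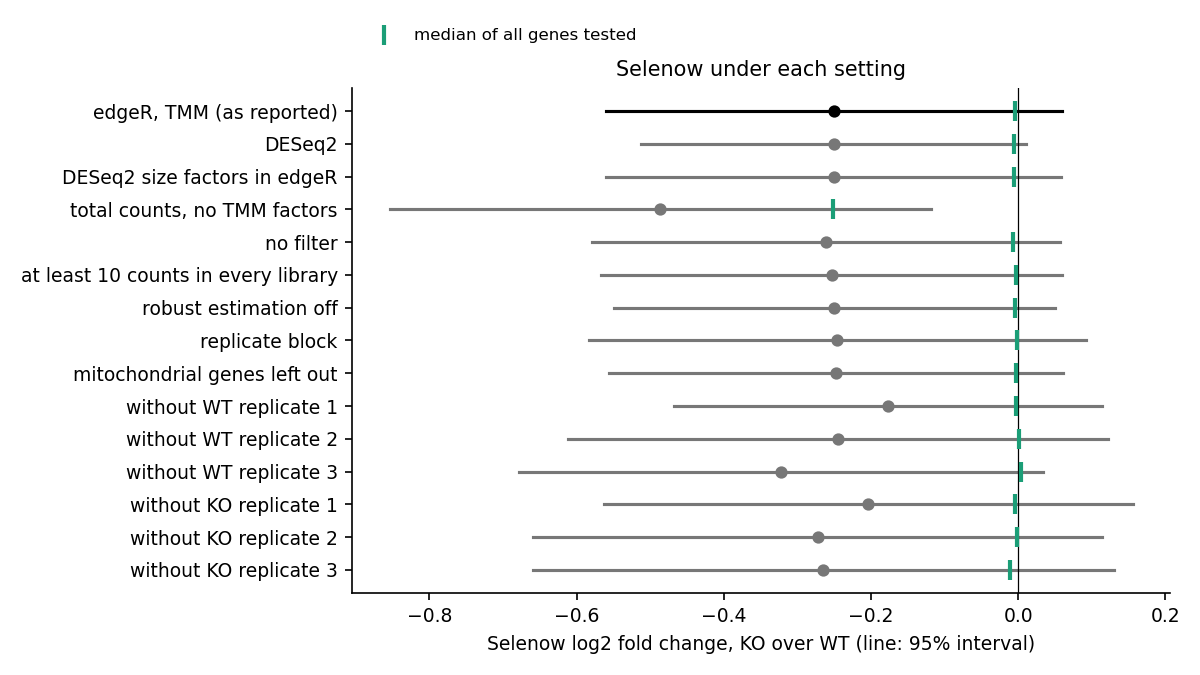
Selenow log2 fold change of KO over WT under each way of processing (points, with 95% intervals as lines) and the median of all genes tested (green marks). Every point lies below 0, and only the interval with scaling by total counts lies wholly below 0, where the median of all genes also moved to -0.25.

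The levels of the members spanned a wide range. To compare genes, CPM was divided by the counted gene length in kilobases (kb). Selenow reached 331 ± 33.1 CPM per kb in WT and 279 ± 13.9 in KO, which only 124 of the 15623 genes exceeded in WT and 136 in KO. Selenot followed with 32.8 ± 2.93 and 31.8 ± 1.26 CPM per kb, Selenof with 7.94 ± 0.170 and 7.66 ± 0.405, Selenoh with 1.53 ± 0.388 and 1.29 ± 0.0997, and Selenom with 0.799 ± 0.105 and 1.03 ± 0.192 (WT first, then KO, with the SD of 3 libraries).

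This order held within 6 of 6 libraries. Selenow exceeded Selenot 7.98-fold to 11.8-fold within a library, Selenot exceeded Selenof 3.87-fold to 4.66-fold, and Selenof exceeded Selenoh 4.18-fold to 7.18-fold, with no overlap between the ranges of these neighbours. Selenoh and Selenom overlapped across libraries and differed 1.08-fold to 2.1-fold within a library. The counted length includes retained introns and alternative ends, 5819 bases for Selenof against 1514 for its longest coding transcript. With the longest coding transcript as the length, Selenof rose to a mean of 30.0 CPM per kb over the 6 libraries against 35.2 for Selenot, and Selenoh exceeded Selenom in 4 of 6 libraries only. The place of Selenow among the 5 members did not depend on this choice.

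Among the 24 selenoprotein genes of the mouse, Selenow ranked first in both genotypes by level per counted kb. Gpx4, the glutathione peroxidase that reduces lipid hydroperoxides, was next with 52.7 CPM per kb in WT and 46.6 in KO, and Selenow exceeded it 5.28-fold to 7.27-fold within a library. Selenow made up 60.4, 55.9 and 56.6% of the summed per-length level of the 24 genes in WT1 to WT3 and 53.9, 56.3 and 54.2% in KO1 to KO3. The shares overlapped at KO2 and WT2 (57.6 ± 2.40% against 54.8 ± 1.30%, exact permutation p = 0.2). Selenot ranked 3 in WT and 4 in KO, Selenof 11 and 9, Selenoh 15 in both and Selenom 17 in both. These ranks, shares and ratios used the counted length and were not computed with transcript lengths. They can depend on that choice, as the level of Selenof did.

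**Figure D4:**
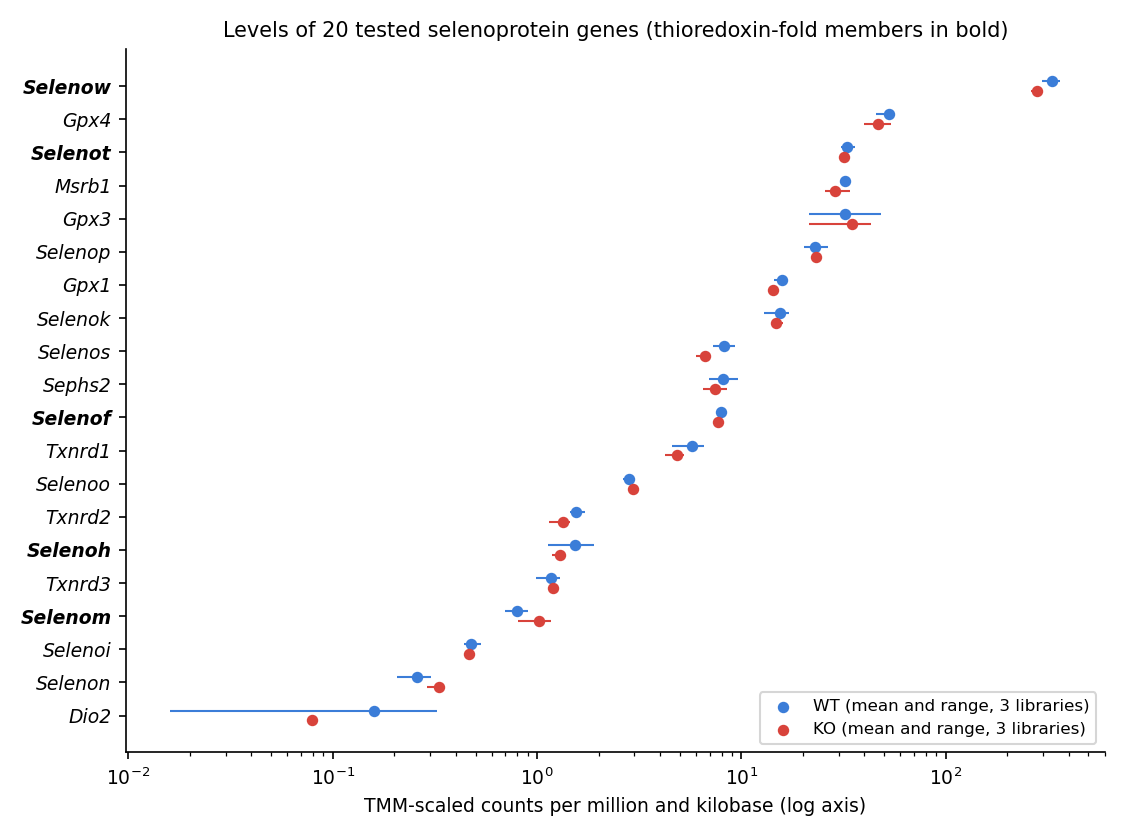
Level per counted kb of the 20 selenoprotein genes that passed the filter (log axis; points are means and lines the range of 3 libraries; WT blue, KO red; members in bold), ordered by the WT mean. Selenow stands alone at the top at 331 and 279 CPM per kb, while Selenoh and Selenom lie near 1.

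Ratios within a library, which do not depend on the scaling between libraries, were compared next. For Selenow against the mean log2 count of the other 4 members, 1 was added to every count. This log2 ratio was 4.60, 4.74 and 4.38 in WT and 4.15, 4.34 and 4.46 in KO. KO3 lay above WT3, so the groups overlapped, and the difference of -0.26 had an exact permutation p of 0.2. With 10 added to every count the difference was -0.27. Against Selenot alone the log2 ratio differed by -0.20 (p = 0.3, exact permutation test) and against Selenof by -0.19 (p = 0.2, exact permutation test). The log2 ratio of Selenot to Selenof differed by 0.011 (p = 0.8, exact permutation test). Adjusted over these 4 comparisons (Benjamini-Hochberg), the exact permutation p-values were 0.4 for the first 3 and 0.8 for the last, and none could pass 0.05 with 3 libraries a group. The summed level of the 5 members was 406, 374 and 344 CPM per kb in WT and 306, 331 and 325 in KO, with no overlap (p = 0.1, exact permutation test). Selenow carried this sum, and without it the other 4 members overlapped at 43.1 ± 2.78 against 41.8 ± 1.62 CPM per kb (p = 0.6, exact permutation test).

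The remaining selenoprotein genes gave the frame for these values. Of the other 19, 15 passed the filter, and Selenov, Gpx2, Dio1 and Dio3 did not. None passed the thresholds of an unadjusted p under 0.05 with a fold change over 1.5 or under 0.7, which 5.35% of all genes did, and 10 of 15 had a log2 fold change below 0, with a median of -0.11. Selenos, a membrane protein of ER-associated degradation, was the only 1 of the 15 at an unadjusted p under 0.05 in edgeR. Over all genes the share at that p was 9.89%. Selenos was not past it with DESeq2 or without WT2, WT3, KO2 or KO3. It gave 12.2 ± 1.52 CPM in WT and 9.78 ± 0.852 in KO, a log2 fold change of -0.32 (SE 0.14), and its adjusted p in edgeR's quasi-likelihood test was 0.494. Its KO libraries, like those of Selenow, lay below all WT libraries, which held for 1 of the 15 and for 7.87% of all genes. Gpx4 (-0.18), Msrb1 (-0.17), Gpx1 (-0.15), Selenop (0.0037) and Gpx3 (0.12), the most abundant of the others per length, had log2 fold changes with adjusted p-values of 0.720 to 0.995.

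**Figure D5:**
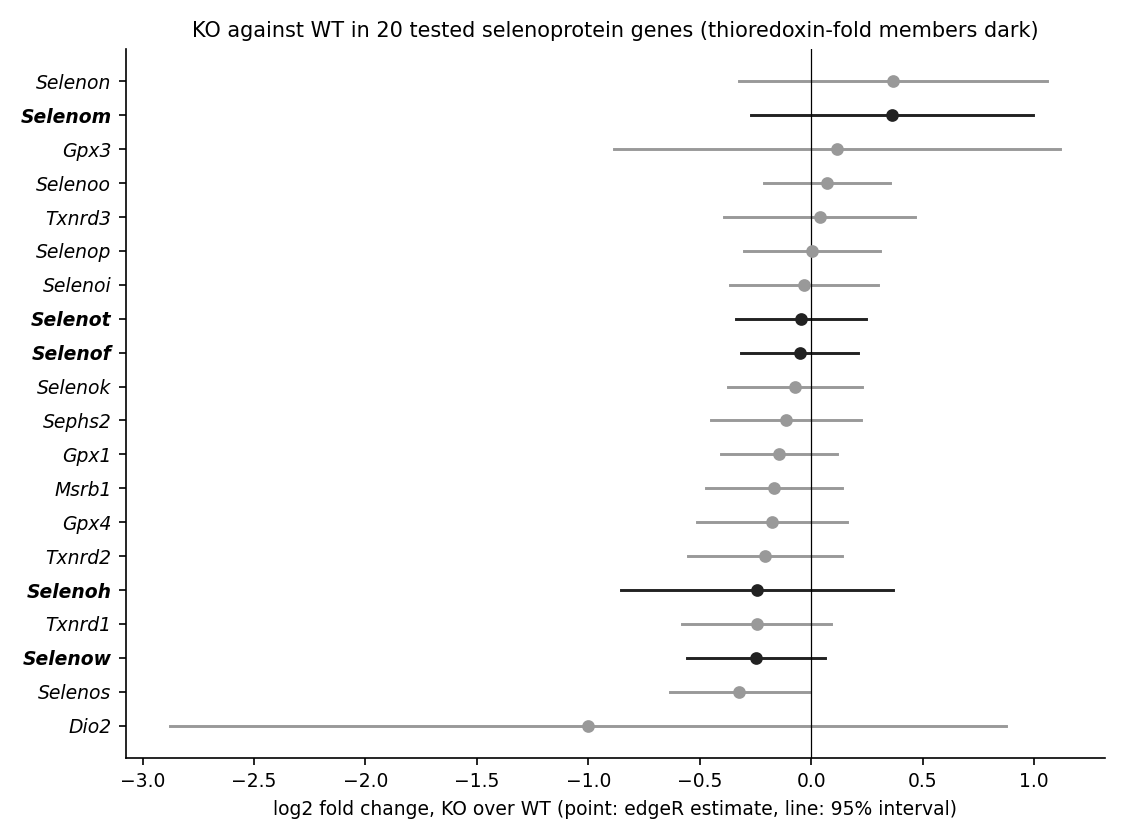
Log2 fold change of KO over WT for the 20 tested selenoprotein genes (points are edgeR estimates, lines 95% intervals; members dark). The intervals of all 5 members cross 0, with Selenow at -0.25 and Selenom at 0.36.

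Genes that act beside the members were counted from lists of their known roles. The list for selenocysteine synthesis, its insertion and selenium supply holds 11 genes (Sephs2 among them, which encodes a selenoprotein itself). All but Lrp8 and Lrp2 were tested. Of these 9, 0 had an unadjusted p under 0.05, against 9.89% of all genes. On the log2 scale 4 were below 0, with a median of 0.038. In the thioredoxin, glutaredoxin and peroxiredoxin list, 15 of 18 were below 0, with a median of -0.15. Txn1, the cytosolic thioredoxin, was the only 1 of the 18 past an unadjusted p of 0.05, against 9.89% of all genes. It gave 14.6 ± 1.61 CPM in WT and 10.04 ± 2.25 in KO (log2 fold change -0.54, SE 0.17, adjusted p = 0.340).

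The list of ER oxidoreductases holds the protein disulfide isomerases and their relatives, which share the compartment of SELENOT, SELENOM and SELENOF and mostly the thioredoxin fold, and the oxidases Ero1a and Ero1b, which do not have that fold. Of these 19 genes, 14 were below 0 with a median of -0.19, and 5 had an unadjusted p under 0.05, all lower in KO, against 5.16% of all genes in that direction. Pdia6, a protein disulfide isomerase, gave 35.7 ± 3.76 CPM in WT and 24.9 ± 4.96 in KO (log2 fold change -0.52, SE 0.16, adjusted p = 0.324). The others were Pdia3 (-0.36), Tmx2 (-0.40), Txndc12 (-0.50) and Txndc5 (-0.29), with adjusted p-values of 0.413 to 0.496, so none passed after adjustment. The 5 became 3 with DESeq2 or without WT3, and 2 without WT1, KO2 or KO3. They became 4 with robust estimation off, 6 without KO1 or with a block for the replicate number, and 7 with no filter. With scaling by total counts they became 11, but 2944 of all 15623 genes were then lower at that p. Pdia6 had an unadjusted p under 0.05 in each of these settings. The ER members themselves were at -0.045 (Selenot), -0.051 (Selenof) and 0.36 (Selenom). Of the glycoprotein-folding genes, 9 of 11 were below 0 with a median of -0.085. None had an unadjusted p under 0.05, against 9.89% of all genes. Uggt1, which encodes the partner of SELENOF, had a log2 fold change of -0.051 (SE 0.19, adjusted p = 0.951).

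Cell composition was read from marker lists. All 14 muscle fibre markers were tested, and their summed level overlapped between WT (102823 to 130786 CPM) and KO (112163 to 131768 CPM). Of the 14, 11 were above 0 on the log2 scale, with a median of 0.12, and 0 had an unadjusted p under 0.05. With scaling by total counts, 13 of 14 were below 0, with a median of -0.12 against -0.25 for all genes. The summed smooth muscle and pericyte markers were 151 to 192 CPM in WT and 220 to 288 in KO, with 3 of 7 tested genes past an unadjusted p of 0.05 (Myh11, Rgs5 and Kcnj8), all higher, against 4.73% of all genes in that direction. With scaling by total counts, 1 of the 7 was higher at that p, against 111 of all 15623 genes. The adjusted p in edgeR was 0.299 for Rgs5, 0.330 for Myh11 and 0.416 for Kcnj8. With DESeq2 it was 0.0394 for Rgs5, 0.109 for Myh11 and 0.529 for Kcnj8. The leukocyte sum overlapped, with 19.8 to 69.8 CPM in WT and 16.1 to 28.9 in KO, but 8 of 10 tested leukocyte genes were below 0 on the log2 scale, with a median of -1.11 (-0.38 without WT3). Csf1r (-0.69) and S100a9 (-1.64) were lower and Cd3e (1.16) higher at an unadjusted p under 0.05, with adjusted p-values of 0.316 to 0.470 in edgeR. Over all genes, 5.16% were lower and 4.73% higher at that p. Fibroblast genes were below 0 in 8 of 9, with a median of -0.35 and overlapping sums (93.9 to 297 CPM in WT, 80.2 to 165 in KO). Without WT3, 4 of 9 were below 0 and the median was 0.038. Endothelial genes were above 0 in 9 of 9, with a median of 0.30 and overlapping sums (92.1 to 141 CPM in WT, 135 to 153 in KO). Of the 9, Cdh5 (0.50) and Flt1 (0.41) were past an unadjusted p of 0.05, against 4.73% of all genes in that direction. With scaling by total counts, 0 of 9 were, 2 were below 0 and the median was 0.049. Without WT2 or without WT3, 2 of 9 were below 0. The Schwann cell, adipocyte and satellite cell sums overlapped as well, with no gene past an unadjusted p of 0.05. The epidermal sum was 0.996 to 1.58 CPM in WT and 0.408 to 0.973 in KO. Of the 2 epidermal genes tested, Sbsn was lower in KO (0.733 ± 0.214 against 0.0259 ± 0.0225 CPM, adjusted p = 0.0956 in edgeR). The adjusted p of Sbsn was 0.0312 with DESeq2, and in edgeR 0.0144 with total counts and 0.167 with robust estimation off. Krt10 had a log2 fold change of 0.40 in the other direction, while Krt5, Krt14 and Krt1 were at 0 in every library. The share of counts from mitochondrial genes was 29.1 to 37.3% in WT and 35.4 to 40.3% in KO. The part of these differences in the values of Selenow was not tested. With mitochondrial genes left out of the fit, the log2 fold change of Selenow was -0.25. TMM rescales the libraries in either case, so this setting is no test of that part.

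Over the 6 libraries, the protein-coding genes most like Selenow by Pearson's r of log2 CPM, out of 12346 compared, were Wdr89 (r = 0.994), Rpl30 (r = 0.988) and Rps26 (r = 0.986). Rpl30 and Rps26 encode ribosomal proteins. Rpl30 gave 50.4, 41.5 and 36.1 CPM in WT and 25.9, 32.7 and 32.8 in KO, the same order of libraries as Selenow except that KO2 and KO3, close to each other in both, changed places. The nearest gene was Igdcc4 for Selenot (r = 0.995), Anxa3 for Selenoh (r = 0.995), Naa40 for Selenom (r = 0.987) and Vmn2r60 for Selenof (r = 0.986). Among the members themselves r ranged from -0.53 (Selenow and Selenom) to 0.62 (Selenow and Selenof). With 6 libraries that share depth and scaling, and with the highest of many values picked, these are a description only.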

How the data were processed

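Per the labels, RNA from TA muscle of 3 WT and 3 KO mice was sequenced. The authors aligned the paired-end reads with Hisat2, counted them per gene with featureCounts and deposited raw counts with gene lengths. GRCm38 is the build of the published methods and GRCm39 that of the submitters' processing notes; of 52083 genes with a symbol, 1494 had the same start and end as in GENCODE M21 (GRCm38), so sequences and table positions are given each with its own build. Strand and multimapping settings are not given in the sources used here. The WT column without a number was taken as WT1, since the other columns name 2 and 3.

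Genes were filtered with filterByExpr, scaled by TMM (factors 0.893 to 1.20) and compared with the quasi-likelihood test of edgeR 4.0.16 (R 4.3.3, robust), with Benjamini-Hochberg adjustment over 15623 genes; the fit was tested on simulated data. DESeq2 1.42.0, other scalings and filters, a replicate block and leaving out each library were tried. The labels name separate samples but the p-values measure only the spread between them. Intervals cover counting error and this spread. The 5 members and all lists were chosen with earlier results of these data known. Genes of the lists with an unadjusted p under 0.05 were named, and those with the highest levels (up to 5) for the other selenoproteins only, and likeness was ranked over the 6 libraries. The log2 CPM used a prior count of 1. Some of the genes listed are not reported here.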

Additional observations from a re-analysis of the deposited data

How the results depend on the processing

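Selenow kept a log2 fold change below 0 under all settings tried, from -0.49 with total counts to -0.095 with the KO counts per 661 bases, and from -0.32 to -0.18 with single libraries left out; its adjusted p ranged from 0.168 to 0.895. Selenot ranged from -0.089 to 0.029 with a library left out and changed sign without WT replicate 3. Selenoh, Selenom and Selenof kept their direction, with ranges of -0.42 to -0.064, 0.26 to 0.51 and -0.094 to -0.025 when single libraries were left out. In the edgeR fit with TMM factors used above, 0 genes had an adjusted p under 0.05. That number was 45 with DESeq2, 55 with total counts, 363 with no filter and 4 with at least 10 counts in every library. With single libraries left out it was 0 to 242 (242 without KO replicate 2, 16 without KO replicate 1, 2 without WT replicate 3). In the same edgeR fit, 836 genes passed the thresholds of p and fold change (345 higher, 491 lower). With DESeq2 the number was 771 (293 higher, 478 lower). The study, which also used DESeq2 and these thresholds, reported more genes higher than lower in KO. With total counts the number was 1792 (80 higher, 1712 lower), with no filter 1780, and with libraries left out 814 to 1072. Of the other selenoprotein genes, 1 passed these thresholds with total counts, with no filter and without WT replicate 2, and 0 to 1 with libraries left out; their median was -0.34 with total counts and -0.12 to -0.051 with libraries left out, the last without KO replicate 2. The log2 difference in the summed level of the 5 members was -0.22 with TMM factors and -0.47 with total counts. By the longest transcript, the mean level per kb was 35.2 for Selenot, 2.04 for Selenoh and 16.8 for Selenof. By the longest coding transcript, chosen after seeing the data, it was 35.2, 2.04 and 30.0, and 1.91 for Selenom, and 3 of the 4 neighbouring pairs kept their order in every library. Deviations of same-numbered libraries correlated at -0.074 to 0.060, and those of differently numbered libraries at -0.14 to 0.093. This gave no sign that the numbers pair the mice, but cannot exclude it. With the replicate block 1 gene had an adjusted p under 0.05 and 890 passed the thresholds of p and fold change. Selenow was then at -0.25 (adjusted p = 0.647 in edgeR's quasi-likelihood test), and Selenos lost its unadjusted p under 0.05. The cause of these changes was not tested. Selenoh and Selenom had 32 to 54 counts per library.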
